A study of Mus musculus with 9 samples.

Results

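The 9 genes described here are known from the making of retinal neurons and from the reprogramming of Mueller cells, the main glial cells of the retina. They are the receptor Notch1, the repressors Hes1 and Hes5, the proneural factor Neurog2, the factors Sox2, Sox9, Pax6 and Lhx2 and the chromatin protein Hmga2. They were selected by symbol, and all 9 were found among the 48587 genes of the count table. Each of them passed the filter on low counts in every comparison, so no gene was lost. RNA came from retinas of C57BL/6J mice that were 12 weeks old. Laser-treated mice received eosin Y, a dye that sensitizes tissue to light. In one eye all veins were laser-treated until they closed (RVO eyes), and the fellow eye received the same number of laser sites between the large vessels (control eyes). These retinas were taken at d2, and a separate group of mice was left untreated. Each group had 3 samples, and each sample was a pool of 6 retinas from 6 mice, so n counts pools. RVO and control eyes shared their mice, but it was not stated whether pools with the same number held the same mice. In the study's own description, laser treatment damaged the outer retina in both laser groups, so control eyes were injured eyes without occluded veins.

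In Notch signalling, a ligand on 1 cell binds a Notch receptor on its neighbour. The receptor is then cut, and its inner part joins the DNA-binding protein RBPJ and switches on genes of the Hes and Hey families. Hes proteins repress proneural genes such as Neurog2, which drive progenitors towards neurons. Mueller cells of the adult retina keep the progenitor factors Sox2, Sox9, Pax6 and Lhx2. In fish they return to a progenitor state after injury, whereas in mammals they mostly respond with gliosis.

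The promoters of Hes5 and Neurog2 are shown because they lie at both ends of this circuit, a direct target of Notch and a proneural gene that Hes proteins repress. Both sequences are from RefSeq on build GRCm38.p6, read 5′ to 3′ on the strand of the gene, and cover the 250 bases before the start site. Capitals mark the core motif bound by RBPJ, TGGGAA, on either strand. The window of Hes5 is chr4:154960673-154960922 on the plus strand, and that of Neurog2 is chr3:127632886-127633135 on the plus strand.
Hes5: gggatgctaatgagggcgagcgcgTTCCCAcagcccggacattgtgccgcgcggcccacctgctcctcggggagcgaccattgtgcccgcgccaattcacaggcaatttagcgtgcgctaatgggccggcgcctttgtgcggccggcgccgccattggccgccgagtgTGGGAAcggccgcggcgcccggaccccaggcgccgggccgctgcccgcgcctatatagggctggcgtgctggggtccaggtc
Neurog2: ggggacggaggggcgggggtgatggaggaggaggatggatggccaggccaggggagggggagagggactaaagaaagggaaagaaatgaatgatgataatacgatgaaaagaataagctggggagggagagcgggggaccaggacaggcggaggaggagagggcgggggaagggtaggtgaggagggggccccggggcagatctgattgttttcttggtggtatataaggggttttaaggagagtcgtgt
The window of Hes5 held 2 matches, which began 226 and 82 bases before the start site on opposite strands, and that of Neurog2 held 0. Of 32851 promoter windows of this length in RefSeq, 21.6% held at least 1 match. The motif CACNAG, to which Hes proteins bind, was in 36.7% of all windows on either strand and in neither of the windows shown. A match of letters is a description of the sequence, and binding was not measured.

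Total counts were 21022997 to 28993921 in RVO eyes, 18897218 to 23419497 in control eyes and 12377572 to 15245869 in untreated eyes, so genes of low expression were measured with less precision in untreated eyes. Levels are given as CPM, which are read counts per 1e6 counts of the library after scaling with TMM factors. In whole retina, fewer cells of a type and less RNA per cell cannot be told apart. RVO replicate 2 stood apart from the other RVO samples: the chi-square of its counts, divided by the degrees of freedom, was 59.5 and 32.1 against them, while RVO replicates 1 and 3 gave 9.80. The tissue was retina by its markers: summed rod markers were at 82603 to 84675 CPM in untreated, 54395 to 66730 in control and 44331 to 48461 in RVO eyes. Summed markers of each type of neuron were lower in both laser groups than in untreated eyes. Not all single markers shared this. The cone marker Pde6h had 109 ± 13.1 CPM in untreated (SD, n = 3), 152 ± 10.8 in control and 131 ± 6.61 in RVO eyes. The amacrine marker Slc32a1 had 55.8 ± 3.94, 91.7 ± 6.01 and 49.6 ± 18.7 CPM. Summed markers of monocytes, macrophages and neutrophils were at 8.18 to 11.004 CPM in untreated, 41.7 to 65.8 in control and 115 to 172 in RVO eyes. Of these 8 markers 1, Ly6c2, was at 0 in untreated eyes. Lens markers were unevenly present, with 123 to 3397 CPM in RVO eyes and 136 to 1905 in control eyes, highest in RVO replicate 2 and control replicate 1, and 2.31 to 18.1 CPM in untreated eyes, where 2 of the 6, Lim2 and Mip, were at 0. The part of these cell types in the results below was not tested.

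Genes were called at a Benjamini-Hochberg adjusted p under 0.01 in edgeR's quasi-likelihood test, over all genes of a comparison. Between RVO and untreated eyes, 5 of the 9 genes were higher, namely Neurog2, Notch1, Sox2, Sox9 and Hmga2, and 2 were lower, namely Pax6 and Hes1. Of all 16380 genes tested, 27.4% were higher and 24.6% lower, so calls were frequent throughout. With scaling by library size only, the split of all calls changed from 4492 higher and 4037 lower to 5967 and 2741, and the median over all genes moved from 0.01 to 0.22 on the log2 scale. The groups did not overlap for 7 of the 9 genes, against 73.3% of all genes.

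Between control and untreated eyes, 6 of the 9 genes were higher, the former 5 and Hes5, and Pax6 was lower. Of 16066 genes tested, 27.2% were higher and 25.2% lower. Without TMM scaling this split changed from 4371 and 4045 genes to 5902 and 2484. The groups did not overlap for 8 of the 9 genes, against 69.8% of all genes. Between RVO and control eyes, Neurog2 and Notch1 were higher and none of the 9 was lower (2 were lower at an unadjusted p under 0.05 and 2 in DESeq2), where 2.7% of 16874 genes were higher and 0.634% lower. At an adjusted p under 0.05, 5 of the 9 were higher and 2 lower, where 17.5% of all genes were higher and 17.1% lower. Of the 16874 genes of this comparison, 7940 had an unadjusted p under 0.05 in either direction. DESeq2 called 1860 of them higher and 2177 lower. RVO and control eyes did not overlap for 8 of the 9 genes, against 52.7% of all genes. The comparisons share samples in pairs, so they are given side by side and not as independent evidence of each other.

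**Figure D1:**
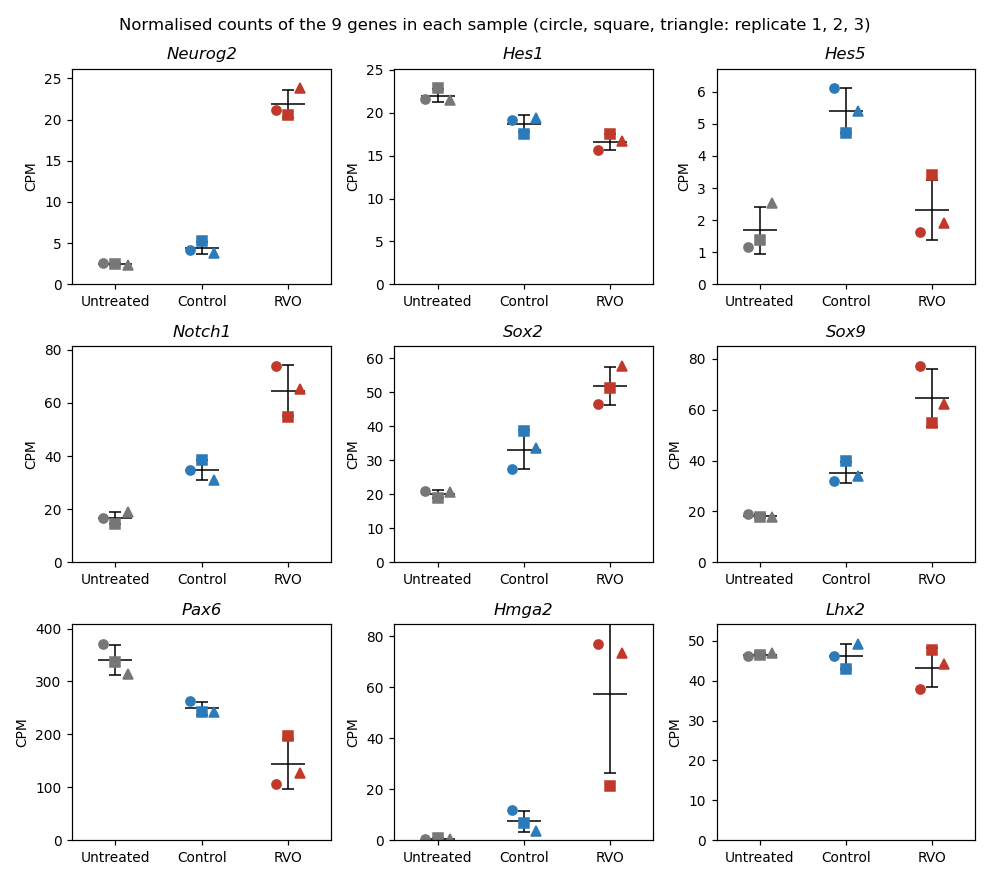
Level of each of the 9 genes in CPM (linear axis from 0) in the 3 samples of each group, with the mean as a line and the SD as a bar. Neurog2 was at 20.6 to 23.8 CPM in all RVO samples, and Hmga2 was at 21.4 CPM in RVO replicate 2 and at 73.5 and 76.9 CPM in the others.

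**Figure D2:**
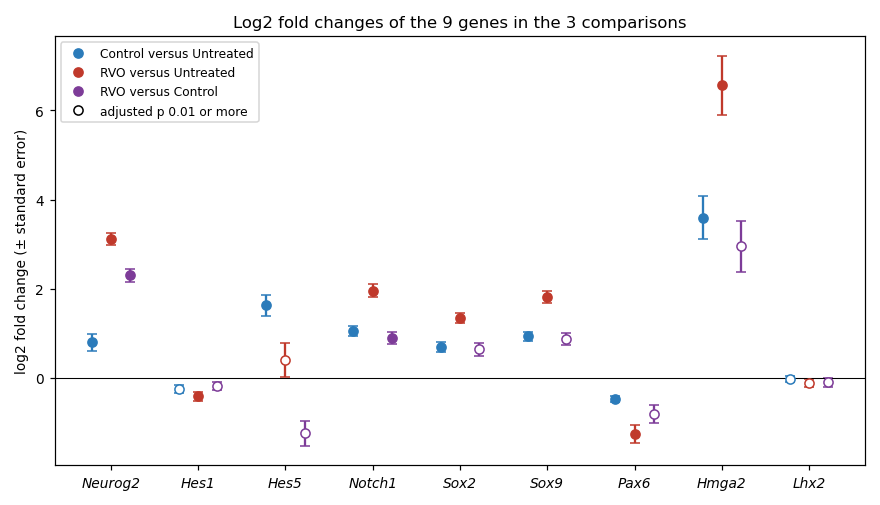
Log2 fold change of each gene with its standard error in the 3 comparisons (edgeR), filled where the adjusted p was under 0.01. Neurog2, Notch1, Sox2, Sox9 and Hmga2 were above 0 and Pax6 and Hes1 below 0 in each comparison, and Hes5 was at 1.63 in control versus untreated and -1.24 in RVO versus control eyes.

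Notch1 encodes a Notch receptor (GRCm38 chromosome 2, 26457903 to 26516663, minus strand). It had 16.6, 14.4 and 18.8 CPM in untreated, 34.7, 38.7 and 31.0 CPM in control and 73.9, 54.8 and 65.4 CPM in RVO replicates 1 to 3. The 3 groups were ordered without overlap, untreated lowest and RVO highest. RVO eyes exceeded untreated eyes 3.87-fold (log2 fold change 1.95, standard error 0.14, edgeR adjusted p = 2.30e-05) and control eyes exceeded them 2.07-fold (1.05, standard error 0.11, adjusted p = 5.41e-06). RVO exceeded control eyes 1.86-fold (0.90, standard error 0.13, edgeR adjusted p = 0.00928). This last call was kept without RVO replicate 2 (adjusted p = 5.06e-05) and lost without each of the other 5 samples, where the adjusted p was 0.0185 without RVO replicate 1, 0.0482 without RVO replicate 3, and 0.0496, 0.0231 and 0.0567 without control replicates 1, 2 and 3. The log2 fold change stayed at 0.78 to 0.98 when samples were left out. Exons of 2 antisense genes overlap Notch1, 0610009E02Rik over 7.50% and Gm13568 over 2.91% of its exon bases. The first was at 0.535 to 1.27 CPM in all samples and the second had 0 counts.

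Among the other Notch receptors, Notch4, which is known from endothelial cells, had 2.96 ± 0.738 CPM in untreated (SD, n = 3), 7.89 ± 1.39 in control and 29.6 ± 13.2 in RVO eyes. It rose in both laser groups against untreated eyes, with log2 fold changes of 3.33 after RVO and 1.41 after control treatment (edgeR adjusted p = 0.00018 and 4.07e-05). RVO versus control eyes gave 1.91 (standard error 0.34, edgeR adjusted p = 0.0117), which did not pass, and passed without RVO replicate 2 (adjusted p = 8.27e-06), with no filter, in DESeq2, in a fit of all samples and with library size only. Summed markers of endothelial cells and pericytes were at 92.9 to 105 CPM in untreated, 121 to 135 in control and 66.6 to 96.1 in RVO eyes. The pericyte gene Rgs5 was the highest of these 5 markers in every sample, with 65.9 ± 6.09 CPM in untreated (SD, n = 3), 65.2 ± 1.96 in control and 33.3 ± 9.49 in RVO eyes. The endothelial markers Pecam1 (10.6 ± 0.627, 15.6 ± 1.68 and 16.4 ± 0.738 CPM) and Cdh5 (3.60 ± 0.410, 9.77 ± 0.488 and 10.3 ± 0.418 CPM) rose in both laser groups against untreated eyes. Cldn5, also endothelial, was called higher in control but not in RVO versus untreated eyes (4.36 ± 1.04, 15.9 ± 3.49 and 5.55 ± 3.23 CPM). Their part in the level of Notch4 was not tested. Notch2 passed in RVO versus untreated eyes (0.44, edgeR adjusted p = 0.00318) and was at 0.12 in control versus untreated eyes. This call was lost without untreated replicates 1 or 3 (adjusted p = 0.0183 and 0.0172). Notch3 passed in control versus untreated eyes (1.39, edgeR adjusted p = 5.38e-05) and was at 0.80 in RVO versus untreated eyes. RVO and control eyes did not differ at the threshold for either gene, with log2 fold changes of 0.31 (standard error 0.08) for Notch2 and -0.61 (standard error 0.29) for Notch3.

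Of the ligands, Jag1 fell in both laser groups. It had 152 ± 1.83 CPM in untreated (SD, n = 3), 99.2 ± 10.1 in control and 88.7 ± 2.43 in RVO eyes, with log2 fold changes of -0.63 and -0.78 against untreated eyes (edgeR adjusted p = 3.62e-06 and 3.08e-05). Dll1 and Dll4, ligands of the Delta type, rose in both groups, Dll1 by 0.43 in control and 0.58 in RVO eyes and Dll4 by 1.16 and 1.46 on the log2 scale. Jag2 rose by 0.76 in control eyes, and its 0.44 in RVO eyes did not pass the threshold (edgeR adjusted p = 0.0149). Dner, a ligand-like protein of neurons, fell in RVO versus untreated eyes by 1.43 on the log2 scale (edgeR adjusted p = 0.00368) and was at -0.10 in control eyes (0.077 with scaling by library size only). Its call was lost without RVO replicate 3 or any 1 of the untreated replicates 1, 2 and 3 (adjusted p = 0.0141 to 0.0190). That of Dll1 was lost in RVO eyes without RVO replicates 1 or 3 or untreated replicates 1 or 2 (0.0103 to 0.0174) and in control eyes without control replicates 1 or 3 or untreated replicate 2 (0.0109 to 0.0314). Dlk1 was at most at 2 counts per sample in untreated eyes, so against a floor of 3 counts it was at least 10.8-fold higher in RVO eyes. It passed the filter in that comparison only through its counts in RVO eyes, and was not tested in control versus untreated eyes. RVO versus control eyes gave 1.31 for Dlk1 (standard error 0.63, edgeR adjusted p = 0.143), which did not pass. Dlk2 passed in no comparison, and Dll3 was tested between RVO and control eyes only, where it did not pass. Over the 11 other receptors and ligands, 5 rose, Dlk1 among them, and 2 fell of 10 tested in RVO versus untreated eyes. In control versus untreated eyes 5 rose and 1 fell of 9, and 0 of 11 passed in RVO versus control eyes. At an adjusted p under 0.05, RVO eyes exceeded control eyes for 2 of those 11 and fell short for 1 (2 and 2 at an unadjusted p under 0.05, and 1 and 1 in DESeq2 at an adjusted p under 0.01). Of all genes tested, 27.4% rose and 24.6% fell in RVO versus untreated eyes, and 27.2% and 25.2% in control versus untreated eyes. Between RVO and control eyes 2.7% rose and 0.634% fell, and 17.5% and 17.1% at an adjusted p under 0.05. There 7940 of all 16874 genes had an unadjusted p under 0.05, and DESeq2 called 1860 higher and 2177 lower.

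Hes1 encodes a repressor that Notch signalling and other pathways switch on (chromosome 16, 30064384 to 30067796, plus strand). It had 21.6, 22.9 and 21.5 CPM in untreated, 19.2, 17.6 and 19.4 CPM in control and 15.7, 17.5 and 16.7 CPM in RVO replicates 1 to 3. RVO samples were lowest and untreated samples highest, without overlap, although control replicate 2 and RVO replicate 2 were nearly equal. Against untreated eyes it was 1.33-fold lower after RVO (log2 fold change -0.41, standard error 0.10, edgeR adjusted p = 0.00511). Left out 1 at a time, RVO replicate 2 was the only sample without which this call was kept (adjusted p = 0.00148), and the adjusted p was 0.0136 to 0.0261 without each of the other 5, RVO replicates 1 and 3 and untreated replicates 1, 2 and 3. The call was also lost with scaling by library size only (-0.20, adjusted p = 0.0964) and with no filter (-0.35, adjusted p = 0.0272). Control versus untreated eyes (-0.25, edgeR adjusted p = 0.0177) and RVO versus control eyes (-0.18, adjusted p = 0.159) did not pass.

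Hes5 encodes a repressor that depends closely on Notch in neural progenitors (chromosome 4, 154960923 to 154962371, plus strand), and its promoter is the one with 2 RBPJ motifs above. It had 1.16, 1.38 and 2.52 CPM in untreated, 6.11, 4.72 and 5.41 CPM in control and 1.64, 3.39 and 1.91 CPM in RVO replicates 1 to 3. Control samples were highest and overlapped with neither group, while RVO and untreated samples overlapped. No other of the 9 genes had its highest mean in control eyes. Counts were low, 13 to 36 in untreated, 93 to 134 in control and 43 to 79 in RVO eyes. Hes5 rose 3.09-fold in control versus untreated eyes (1.63 on the log2 scale, standard error 0.24, edgeR adjusted p = 7.24e-05). It did not pass in RVO versus untreated eyes (0.41, standard error 0.38, adjusted p = 0.370). RVO versus control eyes gave -1.24 (standard error 0.28, edgeR adjusted p = 0.0168), and -1.64 without RVO replicate 2 (adjusted p = 0.000136). An antisense gene, Gm20421, overlaps 31.8% of the exon bases of Hes5. It was at 0 to 0.0765 CPM in untreated, 0.380 to 1.14 in control and 0.488 to 0.816 in RVO eyes, and whether its reads entered the counts of Hes5 was not stated.

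The modifiers Lfng and Mfng, enzymes that add sugars to Notch receptors, had values of a similar shape and are named after their values were seen. Lfng had 9.88 ± 0.438 CPM in untreated (SD, n = 3), 17.8 ± 0.919 in control and 10.3 ± 3.07 in RVO eyes. Mfng had 5.46 ± 0.913, 9.97 ± 0.184 and 4.55 ± 2.02 CPM. Both rose in control versus untreated eyes (log2 fold change 0.83 and 0.84, edgeR adjusted p = 9.30e-06 and 0.000132), and in RVO versus control eyes they were at -0.80 and -1.14 (adjusted p = 0.0218 and 0.0203). The third enzyme of this kind, Rfng, rose in both laser groups, by 0.75 in control and 0.58 in RVO eyes on the log2 scale. Psenen, a subunit of the gamma-secretase that cuts Notch, also rose in both, by 1.30 and 1.63. Adam10, the protease that cuts the receptor first, fell in both, by 0.50 and 0.54. Numb, an inhibitor of Notch, fell by 0.29 in RVO versus untreated eyes, and Kdm5a, a repressor that acts with RBPJ, fell by 0.36 in control versus untreated eyes. Over the 25 genes of Notch processing and transcription, 6 rose and 4 fell in RVO versus untreated eyes, 9 rose and 5 fell in control versus untreated eyes, and 0 passed in RVO versus control eyes (3 higher and 2 lower at an adjusted p under 0.05, 5 and 2 at an unadjusted p under 0.05, 0 and 2 in DESeq2). The shares of all genes higher and lower were 27.4% and 24.6%, 27.2% and 25.2%, and 2.7% and 0.634% in the same comparisons. At an adjusted p under 0.05 the last shares were 17.5% and 17.1%. Between RVO and control eyes, 7940 of all 16874 genes had an unadjusted p under 0.05, and DESeq2 called 1860 higher and 2177 lower. Left out 1 at a time, the samples mattered for some calls of this list. Adam10 in RVO eyes was lost without RVO replicate 3 or untreated replicates 1, 2 or 3 (edgeR adjusted p = 0.0133 to 0.0180), and Numb was kept without RVO replicate 2 only (otherwise 0.0159 to 0.0488, without RVO replicates 1 and 3 and untreated replicates 1, 2 and 3). With library size only, Numb was at -0.079 (adjusted p = 0.428), Adam10 in RVO eyes at -0.33 (0.0264) and Kdm5a in control eyes at -0.19 (0.0121), all without a call. Numb also lost its call with DESeq2 size factors (0.0105), no filter (0.0888) and the DESeq2 test (0.0121). Psenen was lost in RVO eyes without RVO replicates 1 or 3 or untreated replicates 1 or 2 (0.0119 to 0.0371), and in control eyes without control replicates 1 or 2 or untreated replicates 1 or 2 (0.0120 to 0.0357).

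The other target genes moved unequally. Hey1, Heyl, Nrarp and Hey2, common readouts of Notch, are named after their values were seen. The first 3 passed in no comparison, whereas Hey2 rose by 0.83 on the log2 scale in RVO versus untreated eyes (edgeR adjusted p = 0.000777). The Id genes, inhibitors of bHLH factors such as Neurog2 that respond to BMP signals, gave larger differences. Id1 had 6.11 ± 0.232 CPM in untreated (SD, n = 3), 15.4 ± 3.72 in control and 23.8 ± 4.53 in RVO eyes, and Id3 had 9.06 ± 2.04, 30.1 ± 3.29 and 30.8 ± 10.6 CPM. Both rose in both laser groups. Id4 fell, from 27.2 ± 1.20 CPM in untreated to 18.6 ± 0.626 in control and 9.36 ± 4.19 in RVO eyes (log2 fold change -0.56 and -1.55, edgeR adjusted p = 4.47e-05 and 0.00125). Of the 12 targets and Id genes, 5 rose and 1 fell of 10 tested in RVO versus untreated eyes, 3 rose and 1 fell of 9 in control versus untreated eyes, and 0 of 10 passed in RVO versus control eyes (2 higher and 1 lower at an adjusted p under 0.05, 2 and 3 at an unadjusted p under 0.05, 1 and 1 in DESeq2). All genes gave 27.4% higher and 24.6% lower, 27.2% and 25.2%, and 2.7% and 0.634% in the same comparisons. At an adjusted p under 0.05 the last shares were 17.5% and 17.1%. Between RVO and control eyes, 7940 of all 16874 genes had an unadjusted p under 0.05, and DESeq2 called 1860 higher and 2177 lower.

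Neurog2 encodes a proneural bHLH factor that turns progenitors, and glia when it is forced on, into neurons (chromosome 3, 127633135 to 127635631, plus strand). It had 2.59, 2.52 and 2.38 CPM in untreated, 4.20, 5.28 and 3.84 CPM in control and 21.2, 20.6 and 23.8 CPM in RVO replicates 1 to 3. The groups were ordered without overlap. RVO replicate 2, which stood apart in many genes, was close to the other RVO samples in this one. Counts were 29 to 34 in untreated, 91 to 104 in control and 480 to 657 in RVO eyes. RVO eyes exceeded untreated eyes 8.68-fold (log2 fold change 3.12, standard error 0.14, edgeR adjusted p = 2.89e-06) and control eyes 4.93-fold (2.30, standard error 0.15, adjusted p = 0.00317). In control versus untreated eyes it was 1.75-fold higher (0.81, standard error 0.19, edgeR adjusted p = 0.00241).

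The call between RVO and control eyes was kept without RVO replicate 1 (edgeR adjusted p = 0.0055) and without RVO replicate 2 (4.64e-06). It was lost without RVO replicate 3 (0.0196) and without control replicates 1, 2 and 3 (0.0242, 0.0155 and 0.0311), while the log2 fold change stayed at 2.20 to 2.44. With 1 control sample fewer, at most 1 of all genes was called by edgeR in this comparison, while 6299 to 6916 had an unadjusted p under 0.05. The call in control versus untreated eyes was lost without control replicate 2 (adjusted p = 0.0103) and without untreated replicates 2 and 3 (0.0116 and 0.0122).

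Other proneural genes did not share the values of Neurog2. Neurod4, a factor of bipolar and amacrine cells, fell from 289 ± 28.5 CPM in untreated (SD, n = 3) to 145 ± 10.6 in control and 48.0 ± 32.5 in RVO eyes, and Neurod6, a factor of certain amacrine cells, fell in both laser groups as well. Summed bipolar markers were at 959 to 1042 CPM in untreated, 689 to 788 in control and 259 to 512 in RVO eyes, and summed amacrine markers at 776 to 840, 651 to 701 and 258 to 472 CPM. Sox4 and Sox11, factors of newly formed neurons, rose in RVO versus untreated eyes by 2.14 and 1.08 on the log2 scale, and Sox4 also in control eyes by 1.16. Tcf3, the common partner of proneural factors, rose by 1.04 and 0.75. Of 21 proneural and neurogenic factors, 13 were tested, with 4 higher and 7 lower in RVO versus untreated eyes, 2 higher and 6 lower in control versus untreated eyes, and 0 higher and 1 lower in RVO versus control eyes (5 and 7 at an adjusted p under 0.05, 5 and 7 at an unadjusted p under 0.05, 4 and 5 in DESeq2). Their median log2 fold changes were -1.06, -0.47 and -0.95, against 0.01, 0.01 and 0.02 for all genes. Shares of all genes higher and lower were 27.4% and 24.6%, 27.2% and 25.2%, and 2.7% and 0.634% in the same comparisons. At an adjusted p under 0.05 the last shares were 17.5% and 17.1%. Between RVO and control eyes, 7940 of all 16874 genes had an unadjusted p under 0.05, and DESeq2 called 1860 higher and 2177 lower.

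**Figure D3:**
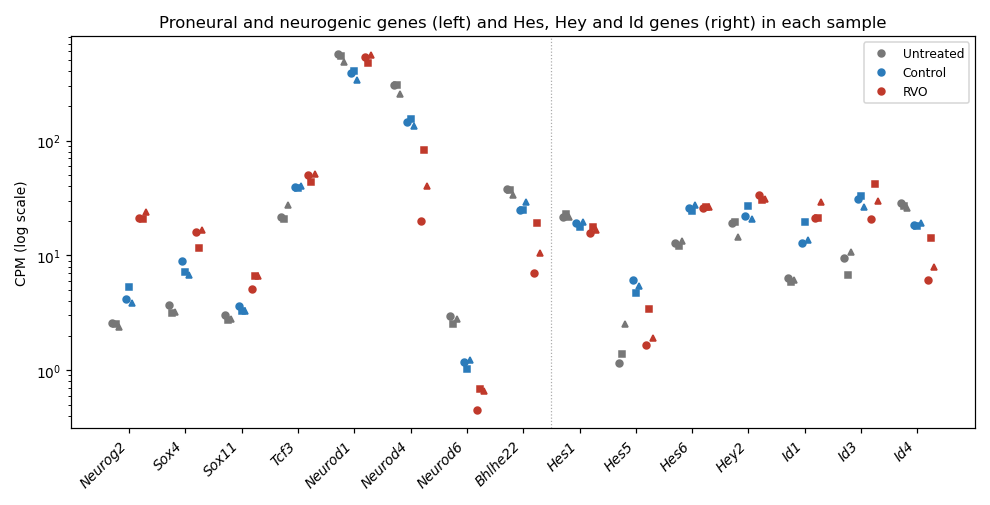
Level in CPM (log axis) of proneural and neurogenic genes and of Hes, Hey and Id genes in each sample, with circles, squares and triangles for replicates 1, 2 and 3. Neurog2 rose from 2.50 CPM in untreated to 21.9 CPM in RVO eyes on average, Neurod4 fell from 289 to 48.0 CPM, and Hes5 was highest in control eyes.

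Sox2 encodes a progenitor factor that Mueller cells, astrocytes and some amacrine cells keep (chromosome 3, 34650405 to 34652461, plus strand). It had 21.1, 18.9 and 20.7 CPM in untreated, 27.3, 38.7 and 33.5 CPM in control and 46.5, 51.3 and 57.8 CPM in RVO replicates 1 to 3. The groups were ordered without overlap. It rose 2.54-fold in RVO versus untreated eyes (1.35 on the log2 scale, standard error 0.10, edgeR adjusted p = 2.95e-05) and 1.62-fold in control versus untreated eyes (0.69, standard error 0.12, adjusted p = 0.000247). RVO versus control eyes gave 0.64 (standard error 0.14), above the threshold at an edgeR adjusted p of 0.0155.

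Sox9 encodes a factor of glia, in the retina of Mueller cells, and of the pigment epithelium (chromosome 11, 112782224 to 112787760, plus strand). It had 19.1, 17.8 and 17.7 CPM in untreated, 32.0, 39.8 and 34.0 CPM in control and 77.2, 54.6 and 62.1 CPM in RVO replicates 1 to 3. These groups too were ordered without overlap. Sox9 rose 3.54-fold in RVO versus untreated eyes (1.82 on the log2 scale, standard error 0.14, edgeR adjusted p = 2.50e-05) and 1.92-fold in control versus untreated eyes (0.94, standard error 0.10, adjusted p = 4.17e-06). In RVO versus control eyes it was at 0.87 (standard error 0.14, edgeR adjusted p = 0.0102), just outside the threshold, and at 0.97 without RVO replicate 2 (adjusted p = 0.000142).

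Markers of the cell types that have Sox2 and Sox9 are given beside them. The summed level of 10 Mueller cell markers was at 6334 to 6672 CPM in untreated, 5087 to 5794 in control and 3060 to 4570 in RVO eyes, and of these markers 1 rose and 5 fell in RVO versus untreated eyes. Of all genes, 27.4% rose and 24.6% fell in that comparison. In control versus untreated eyes 2 of these markers rose and 5 fell, against 27.2% and 25.2% of all genes. Summed markers of the pigment epithelium, which also has Sox9, were at 450 to 498, 431 to 524 and 336 to 559 CPM. Summed astrocyte markers were at 469 to 481, 773 to 880 and 434 to 693 CPM. Single markers differed from these sums. Among Mueller cell markers, Clu had 703 ± 38.0 CPM in untreated (SD, n = 3), 1342 ± 32.7 in control and 1049 ± 216 in RVO eyes. Clu thus rose in both laser groups. Kcnj10 had 112 ± 4.34, 159 ± 29.1 and 88.4 ± 34.9 CPM and was called higher in control versus untreated eyes only. Glul, the highest of the 10 in untreated eyes, had 2552 ± 89.2, 1264 ± 339 and 659 ± 87.9 CPM and fell in both laser groups. Rdh5, a marker of the pigment epithelium, had 33.2 ± 2.30 CPM in untreated (SD, n = 3), 42.9 ± 2.13 in control and 57.6 ± 11.9 in RVO eyes and rose in both laser groups, and Best1 had 0.432 ± 0.209, 0.775 ± 0.164 and 0.888 ± 0.124 CPM without a call, whereas Rpe65 fell in both. Among astrocyte markers, Gfap, which Mueller cells also make in gliosis, rose from 20.6 ± 0.235 CPM to 296 ± 70.6 in control and 216 ± 50.1 in RVO eyes. The others did not share this: S100b had 9.30 ± 0.930, 8.48 ± 0.704 and 4.90 ± 1.85 CPM in untreated, control and RVO eyes. Aldoc had 444 ± 6.72, 529 ± 42.5 and 318 ± 94.0 CPM and was called higher in control versus untreated eyes. Both were below untreated eyes in RVO eyes without a call, and Pax2 passed in no comparison.

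Pax6 encodes a master factor of eye development that amacrine, ganglion and horizontal cells, and less so Mueller cells, keep in the adult (chromosome 2, 105668900 to 105697364, plus strand). It had 371, 336 and 315 CPM in untreated, 264, 242.4 and 242.6 CPM in control and 106, 196 and 127 CPM in RVO replicates 1 to 3. The groups were ordered without overlap, untreated highest, and RVO replicate 2 was nearest to the control samples. Pax6 fell 2.40-fold in RVO versus untreated eyes (-1.26 on the log2 scale, standard error 0.20, edgeR adjusted p = 0.000836) and 1.38-fold in control versus untreated eyes (-0.47, standard error 0.07, adjusted p = 4.68e-05), the latter without a call in a fit of all samples (adjusted p = 0.0422). RVO versus control eyes gave -0.80 (standard error 0.20, edgeR adjusted p = 0.0226), and -1.12 without RVO replicate 2 (adjusted p = 1.30e-05).

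Summed markers of the neurons that contain Pax6 were ordered likewise. Summed amacrine markers were given above, those of ganglion cells were at 1026 to 1081 CPM in untreated, 875 to 936 in control and 231 to 568 in RVO eyes, and those of horizontal cells at 127 to 142, 74.3 to 82.5 and 6.80 to 39.5 CPM. Single markers did not all share this order. In control versus untreated eyes 4 of 7 amacrine, 5 of 7 ganglion cell and 1 of 4 horizontal cell markers fell, against 25.2% of all genes. The amacrine marker Slc32a1 rose there. In RVO versus untreated eyes 6 of 7 amacrine, 7 of 7 ganglion cell and 3 of 4 horizontal cell markers fell, against 24.6% of all genes. Prox1, a factor of horizontal, bipolar and amacrine cells, fell too, with a log2 fold change of -2.16. Lhx1, a factor of horizontal cells that is already counted among their markers, was at -2.42. The call of Lhx1 was lost without untreated replicate 1 (edgeR adjusted p = 0.0109).

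Lhx2 encodes a factor that keeps Mueller cells and progenitors in their state (chromosome 2, 38339281 to 38369733, plus strand). It had 46.3, 46.4 and 46.8 CPM in untreated, 46.2, 42.9 and 49.2 CPM in control and 38.0, 47.7 and 44.1 CPM in RVO replicates 1 to 3. All groups overlapped. Its log2 fold change was -0.12 (standard error 0.10, edgeR adjusted p = 0.306) in RVO versus untreated eyes, -0.03 (standard error 0.07, adjusted p = 0.688) in control versus untreated eyes and -0.09 (standard error 0.10, adjusted p = 0.477) in RVO versus control eyes. It was the only gene of the 9 whose sign depended on the settings tried, at 0.10 and 0.14 against untreated eyes when libraries were scaled by their size only.

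Of 20 further factors of progenitors and glia, 18 were tested. In RVO versus untreated eyes 4 rose and 8 fell, in control versus untreated eyes 4 rose and 6 fell, and in RVO versus control eyes 1 rose and 0 fell (2 and 8 at an unadjusted p under 0.05, 1 and 6 in DESeq2). All genes gave 27.4% higher and 24.6% lower, 27.2% and 25.2%, and 2.7% and 0.634% in the same comparisons. Between RVO and control eyes, 7940 of all 16874 genes had an unadjusted p under 0.05, and DESeq2 called 1860 higher and 2177 lower. Rax, an early eye field factor that photoreceptors and Mueller cells keep, had 32.1 ± 6.95 CPM in untreated (SD, n = 3), 58.5 ± 3.38 in control and 57.2 ± 4.61 in RVO eyes, and rose in both laser groups (log2 fold change 0.84 and 0.82). Zfp36l1, a protein that promotes the decay of RNAs, rose in every comparison, from 7.66 ± 1.15 CPM to 14.5 ± 1.93 and 26.6 ± 2.33 CPM (log2 fold change 0.88 in RVO versus control eyes, standard error 0.13, edgeR adjusted p = 0.00922). Lhx9, a relative of Lhx2, fell by 1.33 in RVO and by 0.74 in control eyes versus untreated eyes on the log2 scale.

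Hmga2 encodes a protein that binds and bends DNA, is abundant in embryonic progenitors and is restrained by let-7 microRNAs (chromosome 10, 120361275 to 120476469, minus strand). It had 0.358, 0.918 and 0.491 CPM in untreated, 11.7, 6.85 and 3.68 CPM in control and 76.9, 21.4 and 73.5 CPM in RVO replicates 1 to 3. The groups were ordered without overlap, but samples varied within the laser groups: RVO replicate 2 was far below the other RVO samples, and the control samples spread as well. Counts in untreated eyes were 4, 12 and 7, so folds against them are imprecise. The fitted fold was 94.6 in RVO versus untreated eyes (6.56 on the log2 scale, standard error 0.66, edgeR adjusted p = 8.90e-05) and 12.1 in control versus untreated eyes (3.60, standard error 0.49, adjusted p = 3.40e-05). RVO versus control eyes gave 7.75-fold (2.95, standard error 0.57, edgeR adjusted p = 0.0130), which did not pass, and 3.33 on the log2 scale without RVO replicate 2 (adjusted p = 3.02e-05). Summed markers of ciliary and iris epithelium and fibroblasts, cells from the rim and coats of the eye, were at 22.02 to 25.05 CPM in untreated, 26.2 to 36.3 in control and 57.7 to 68.5 in RVO eyes. Of these, Zic1 fell in control versus untreated eyes, from 10.4 ± 0.452 to 7.45 ± 1.34 CPM (SD, n = 3). Zic1, Col1a1, Dcn, Lum and Krt14 were highest in RVO replicate 2, where Hmga2 was lowest among RVO samples. Wfdc1 and Col1a2 were lowest in that sample. The neutrophil markers S100a8 and S100a9, like Hmga2, were lowest in replicate 2 among RVO samples, and highest in replicate 1 and lowest in replicate 3 among control samples. S100a9 was at 38.9, 14.1 and 39.9 CPM in RVO and 8.85, 6.90 and 2.41 CPM in control replicates 1 to 3. S100a8 was at 29.6, 14.3 and 33.9 CPM and at 6.25, 5.33 and 1.77 CPM in the same samples. Both had at most 0.210 CPM in untreated samples. The rest of the 8 markers of monocytes, macrophages and neutrophils did not share both orders. Ptprc, Itgam and Ly6c2 were also lowest in RVO replicate 2. Lyz2 (49.3, 58.5 and 61.5 CPM in RVO replicates 1 to 3), Ccr2 and Ms4a7 were lowest in RVO replicate 1. In control eyes all of these were highest in replicate 2, such as Itgam with 10.5, 13.3 and 9.25 CPM in replicates 1 to 3. The part of these cells in the level of Hmga2 was not tested. An antisense gene, 1700006J14Rik, overlaps 2.07% of the exon bases of Hmga2.

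Its relative Hmga1, named after its values were seen and with pseudogenes that make its count uncertain, rose from 18.4 ± 0.417 CPM in untreated (SD, n = 3) to 29.5 ± 4.98 in control and 104 ± 33.9 in RVO eyes. Among other factors linked to reprogramming, Lif, a cytokine that acts on Mueller cells, rose from 0.972 ± 0.227 CPM to 15.2 ± 2.28 and 65.8 ± 15.1 CPM, with log2 fold changes of 6.05 in RVO versus untreated and 2.11 in RVO versus control eyes (edgeR adjusted p = 2.73e-06 and 0.00564). Socs3, a target and inhibitor of its signal, rose by 5.85 in RVO and 4.59 in control eyes versus untreated eyes on the log2 scale. Myc, a factor of growth and proliferation, had 1.22 ± 0.603, 7.30 ± 1.17 and 42.7 ± 20.7 CPM and was higher in RVO than in control eyes (2.55, standard error 0.38, edgeR adjusted p = 0.00944). Hbegf, a growth factor that starts the regeneration of fish retina, was higher in RVO than in control eyes as well (2.37, standard error 0.38, adjusted p = 0.00996). Igf2bp3 and Plagl1, fetal growth genes, fell in both laser groups, by 1.05 and 0.42 in RVO and by 0.57 and 0.69 in control eyes. The call of Plagl1 in RVO eyes was kept without RVO replicate 2 only (otherwise edgeR adjusted p = 0.0121 to 0.0226, without RVO replicates 1 and 3 and untreated replicates 1, 2 and 3), and that of Igf2bp3 in control eyes was lost without control replicates 1 or 3 or untreated replicates 1 or 2 (0.01002 to 0.0238). With library size only, Plagl1 in RVO eyes was at -0.20 (adjusted p = 0.103) and Igf2bp3 in control eyes at -0.40 (0.0324), and calls were lost too for Plagl1 with no filter (0.0126) and for Igf2bp3 in DESeq2 (0.0106). Of 25 such factors, 15 rose and 3 fell of 22 tested in RVO versus untreated eyes, 13 rose and 4 fell of 21 in control versus untreated eyes, and 8 rose and 0 fell of 22 in RVO versus control eyes (16 and 2 at an unadjusted p under 0.05, 12 and 1 in DESeq2). Their median log2 fold changes were 1.68, 0.66 and 0.90. Shares of all genes higher and lower were 27.4% and 24.6%, 27.2% and 25.2%, and 2.7% and 0.634% in the same comparisons. Between RVO and control eyes, 7940 of all 16874 genes had an unadjusted p under 0.05, and DESeq2 called 1860 higher and 2177 lower.

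**Figure D4:**
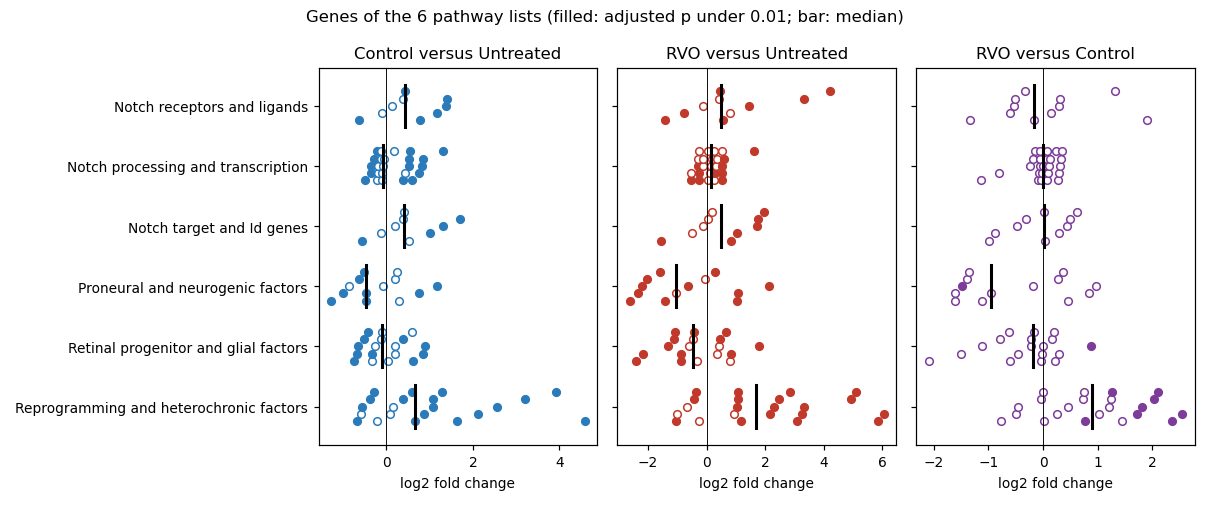
Log2 fold change of each tested gene of the 6 pathway lists in the 3 comparisons (edgeR), filled where the adjusted p was under 0.01, with the median of each list as a bar. In RVO versus control eyes 10 of 99 genes were called, 8 of them among the reprogramming factors. Of all genes, 2.7% were higher and 0.634% lower in this comparison. The lists were chosen with earlier results of these data known.

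Over all 114 pathway genes, 98 were tested in RVO versus untreated eyes. Of these 39 rose and 25 fell, against 27.4% and 24.6% of all genes. In control versus untreated eyes 36 rose and 23 fell of 95, against 27.2% and 25.2% of all genes. In RVO versus control eyes 9 rose and 1 fell of 99, against 2.7% and 0.634% of all genes. At an adjusted p under 0.05 the last counts were 27 and 19, against 17.5% and 17.1% of all genes. These counts, the calls of Zfp36l1, Lif, Myc and Hbegf among them, depended on single samples: without RVO replicate 3 or any 1 of control replicates 1, 2 and 3, edgeR called 0 of the pathway genes between RVO and control eyes, without RVO replicate 1 it called 2 higher and 0 lower, and without RVO replicate 2 it called 25 higher and 25 lower. In a fit of all samples, the calls of Notch4, Dll1, Mfng, Psenen, Id4, Neurod4 and Prox1 in control versus untreated eyes were lost (edgeR adjusted p = 0.0101 to 0.0697). Their shares are to be read beside the shares of all genes given above.

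To compare the 9 genes, levels were divided by the merged length of all annotated exons of a gene. The transcripts present can be shorter than this length, so the order given here holds for this length only. In untreated eyes Pax6 was highest with 29.1 CPM per kb, followed by Hes1 with 10.8, Lhx2 with 10.6 and Sox2 with 9.83, and lower levels were found for Sox9 with 4.40, Hes5 with 1.24, Notch1 with 1.16, Neurog2 with 1.12 and Hmga2 with 0.0869 CPM per kb. In RVO eyes Sox2 was highest with 25.2, followed by Sox9 with 15.6, Pax6 with 12.3, Lhx2 with 9.84, Neurog2 with 9.82, Hmga2 with 8.45, Hes1 with 8.16, Notch1 with 4.54 and Hes5 with 1.70 CPM per kb. Neurog2 thus came from near the bottom of the order in untreated eyes to 9.82 ± 0.767 CPM per kb in RVO eyes (SD, n = 3), where Lhx2, a gene of Mueller cells, had 9.84 ± 1.12. Hmga2 was below all others in untreated eyes, and its 8.45 ± 4.59 CPM per kb in RVO eyes (SD, n = 3) varied most of the 9, with RVO replicate 2 low.

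The 9 genes fell into a few shapes across the 9 samples, given as Pearson's r of log2 CPM (with a prior count of 2) over samples that share groups. Notch1, Sox2, Sox9, Neurog2 and Hmga2 had r between 0.910 and 0.988 with each other. Pax6 and Hes1 went along with each other (r = 0.922) and against these 5, with r of -0.872 or below. Hes5 was within -0.217 to 0.304 of all others. Out of 14973 genes with a mean of at least 1 CPM, the 3 most like Neurog2 were Iqgap1 (r = 0.992), Rhoj (0.990) and Krt18 (0.989). Those most like Notch1 were Spsb1, Nfkbie and Plin2 (0.998 each), and those most like Sox9 were Chid1, Arhgdia and Bcl6 (0.996 each). For Sox2 they were Rhod (0.993), Etfa (0.993) and Tmem43 (0.989), and for Pax6 1700022E09Rik, Atp6ap2 (0.998 each) and Glra3 (0.997). Among those most like Hmga2 was Cxcl1 (0.991), besides a gene whose symbol is deposited as a date. Hes5 was most like Hist3h2ba (0.987), Syngr1 (0.985) and Itm2c (0.985), and Hes1 like Gm42878 (0.991), Fam3c (0.988) and Mcf2 (0.987). Lhx2 had no gene above 0.915, the r of Tbx5, followed by D630023F18Rik (0.911) and Gm27032 (0.903).

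**Figure D5:**
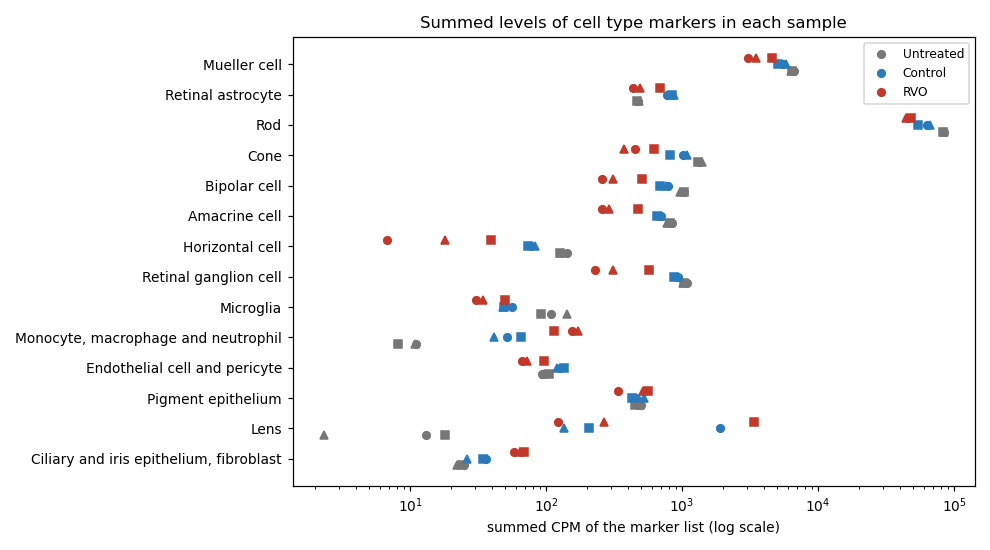
Summed CPM (log axis) of the markers of 14 cell types in each sample, with circles, squares and triangles for replicates 1, 2 and 3. Summed markers of each type of retinal neuron and of Mueller cells were lowest in RVO eyes. Those of monocytes, macrophages and neutrophils were highest there with 115 to 172 CPM, and lens markers varied from 123 to 3397 CPM between RVO samples.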

How the data were processed

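RNA was sequenced from 9 samples, 3 each of RVO, control and untreated retinas, from a stranded poly-A library. Per the methods and processing notes, the authors mapped the reads with STAR 2.5.2b to the mouse genome with the Gencode annotation, counted reads per gene with featureCounts of Subread 1.5.1 and deposited these raw counts without normalization. Whether counting used the strand, and how reads of several genes were treated, is not given in the sources used here, so overlapping and paralogous genes are uncertain. The 92 spike-in rows, at 0 counts, were left out, and the number of unused columns was 0. Samples were grouped by their titles. Coordinates and exon lengths are from GENCODE on the same build, GRCm38. Levels of cell types and genes are CPM after TMM scaling over all samples.

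In R 4.3.3, edgeR 4.0.16 (filterByExpr, TMM, quasi-likelihood test) was fitted for each pair of groups, with Benjamini-Hochberg adjustment over all genes tested and a threshold of 0.01. The procedure was tested on simulated data. Alternatives were DESeq2 1.42.0 (its size factors, its Wald test), scaling by library size only, no filter, a filter of 1 CPM in 3 samples, one model over all 9 samples, a block for the replicate number, a threshold of 0.05 and each sample left out. The members and lists were chosen with earlier results of these data known. Named were all 9 members, the Notch receptors and ligands, the called genes with the 2 highest and 2 lowest log2 fold changes per other list and comparison, the 3 genes most correlated with each member, and others said to be named after their values were seen. Pools were separate samples, but RVO and control pools came from the same mice, and the main fit took them as unpaired. The p-values set the difference between groups against the spread between pools. The results of 2 genes that this rule names are not reported here.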

Additional observations from a re-analysis of the deposited data

How the results depend on the processing

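All members but Lhx2 kept their direction under every alternative. Lhx2 was at 0.10 in RVO and 0.14 in control versus untreated eyes with library size only, and at -0.077 to 0.010 in the latter comparison with samples left out. Among the other genes, Dlk2 in RVO versus untreated eyes was at 0.09 with library size only and at -0.37 to 0.13 with samples left out, and Dner in control versus untreated eyes was at 0.077 with library size only. In RVO versus untreated eyes, the count of members lower (2) was 1 with library size only, 1 with no filter and 1 with the replicate block, and 1 to 2 with samples left out. The count of pathway genes lower (25) was 16 with library size only and 12 to 34 with samples left out. In control versus untreated eyes, members lower (1) were 0 in a fit of all 9 samples and 2 at an adjusted p under 0.05, and pathway genes lower (23) were 14 with library size only. In RVO versus control eyes, members higher (2) and lower (0) were 5 and 2 with no filter, in DESeq2, in a fit of all 9 samples and at an adjusted p under 0.05, and 0 to 5 and 0 to 2 with samples left out. Pathway genes higher (9) and lower (1) were 17 and 14 with no filter, 19 and 16 in DESeq2, 18 and 15 in the fit of all samples, 27 and 19 at 0.05, and 0 to 25 each with samples left out. With library size only, 14 were higher. Over all genes of this comparison edgeR called 563, 3309 with no filter, 3853 in the fit of all samples, 4037 in DESeq2, 5836 at 0.05, 892 with library size only and, with 1 sample left out, 29 (RVO replicate 1), 6257 (RVO replicate 2), 1 (control replicate 1) and 0 (RVO replicate 3 or control replicates 2 or 3, with 6100, 6916 and 6311 at an unadjusted p under 0.05).

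With the replicate block, 0 genes were called between RVO and control eyes (7227 at an unadjusted p under 0.05), and members and pathway genes higher and lower were 0. RVO and control eyes shared mice, and with this block Neurog2 and Notch1 were at 2.31 and 0.89 (adjusted p = 0.0314 each). In RVO versus untreated eyes it ended the calls of Hes1 (0.0124) and Numb (0.0257). Deviations of samples with the same number correlated at -0.166, -0.181 and 0.0886 in RVO versus control eyes. These values were -0.0571, 0.110 and 0.0543 in RVO versus untreated and 0.0375, -0.0361 and 0.0899 in control versus untreated eyes. Samples with different numbers gave -0.267 to 0.267 in RVO versus control eyes, so these values cannot decide whether the numbers pair the samples. Depth limits Hmga2 and Hes5 in untreated eyes, with 4 to 12 and 13 to 36 counts. The cause of these dependences was not tested.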
